A study of Danio rerio with 36 samples.

Results

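The antioxidant and redox genes described here, across zebrafish development and doses of methyl tert-butyl ether (MTBE), were gpx4a, prdx1, gclc, gstp1.2, nqo1, blvrb, park7 and tktb. They were taken as every probe set, the group of short probes that reports 1 transcript on the array, that the platform annotation maps to exactly 1 of these symbols. That gave 10 probe sets for 8 genes, of 15502 probe sets tested and 8793 genes with 1 symbol. Prdx1 had 3 probe sets and each other gene had 1. Those of prdx1 are called A, the brightest, B, whose suffix in the manufacturer's naming marks probes shared by transcripts of 1 gene, and C, the dimmest.

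The samples were lysates of whole zebrafish (Danio rerio) embryos, and every group, controls included, carried the transgene Tg(fli1a:EGFP)y1, in which a vessel promoter drives a green fluorescent protein. Embryos were held in sealed glass vials from about 3 hours post fertilization (hpf), in embryo medium alone (control) or in medium with 0.00625, 0.625 or 5 mM MTBE, a fuel additive. They were collected at 6-somites (about 15 hpf), at 21-somites (about 24 hpf) or at Prim-5 (about 30 hpf). Stage and dose made 12 groups with 3 samples in each, every sample a pool of 15 embryos on 1 array, so that the spread between individual embryos was not measured.

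Reactive oxygen species are held in check by enzymes that remove peroxides, by glutathione, and by enzymes that supply the reducing power of NADPH. Many of these genes are controlled by the transcription factor Nrf2, which the sensor Keap1 holds inactive until electrophiles or oxidants modify it, and which then binds antioxidant response elements in promoters. In zebrafish larvae pi-class glutathione transferases, prdx1 and gclc are widely used as readouts of that pathway, and antioxidant genes also change with normal development as blood, muscle and liver form.

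Values are on the log2 scale deposited by the authors, and a difference of 1 is a doubling. Levels of different genes were not compared, since each probe set has its own affinity. A probe set passed the test at a Benjamini-Hochberg adjusted p under 0.05 in limma (two-sided, over all 15502 probe sets), and errors of differences are standard errors (SE). Array medians lay between 3.41 and 3.62, and replicates correlated between 0.984 and 0.9958. Marker lists followed the stage labels: the mean log2 level of 11 fast muscle genes ran from 2.75 to 3.10 at 6-somites, 5.45 to 6.18 at 21-somites and 8.36 to 8.77 at Prim-5, and that of 8 measured tailbud and segmenting mesoderm genes (of 9) ran from 5.36 to 5.72, then 4.24 to 4.49, then 3.18 to 3.52. That of 6 macrophage and leukocyte genes (of 8) lay between 3.14 and 3.71 on all arrays. Single genes of that list moved in opposite directions. In control means over the 3 stages lcp1 read 5.88, 3.11 and 3.36, and lyz 2.60, 2.90 and 4.77. The probe set for EGFP averaged 2.71, between those of the 2 red fluorescent proteins that the labels do not name in this line (2.18 and 2.98), so the transgene was not shown above background. The higher of these, 2.98, serves below as a mark of a dim signal.

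At both 6-somites and 21-somites, control replicate 1 stood apart from the other arrays of its stage in yolk transcripts. Over 14 measured genes of the yolk syncytial layer (of 17 listed), its mean log2 level was 6.24 and 6.21. The other controls lay at 7.24 and 7.26 at 6-somites and at 8.07 and 8.09 at 21-somites, and the arrays with MTBE between 7.03 and 7.37 and between 7.68 and 8.14. None of the 14 genes had a mean level under 2.98. The name yolk-poor controls is used for these 2 arrays, and stage and dose results that move without them are also given that way. In whole embryos, fewer cells of a type and less RNA per cell cannot be told apart.

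Between stages the 8 genes did not move as 1 group. Nqo1 fell at both steps, and blvrb was higher at both, the first from a stage where it was not shown above background. Gstp1.2 and prdx1 probe sets A and B rose from 21-somites to Prim-5 in controls and with MTBE, and passed the first step with MTBE only. Park7 rose at the first step in both, gpx4a and tktb passed there with MTBE, and gclc passed at neither. The steps with MTBE rest on 9 arrays per stage and those in controls on 3. Their median SE over all probe sets was 0.08 and 0.14. Passing with MTBE only is therefore not read as a difference between exposed and control embryos. In controls 3 of the 10 probe sets passed from 6-somites to 21-somites (2 higher, 1 lower), against 22.6% of all probe sets (11.7% higher, 10.9% lower). From 21-somites to Prim-5, 5 passed (4 higher, 1 lower), against 7.04% (4.33% higher, 2.7% lower). In embryos with MTBE, taken as the mean of the steps at the 3 doses, 8 passed at the first step (7 higher, 1 lower), against 49.7% (19.8% higher, 29.9% lower). At the second, 6 passed (5 higher, 1 lower), against 25.8% (12.1% higher, 13.7% lower). These counts are of probe sets, not genes. Prdx1 A, B and C are all among these 6. A and B are among the 5 at the second control step and the 8 at the first step with MTBE. With cyclic loess in place of the deposited scaling, the split of all probe sets that passed moved toward higher at all 4 steps. It was 1938 higher and 1595 lower, 823 and 275, 3545 and 3253, and 2261 and 1444. With quantile normalization it was 1699 and 2013, 691 and 437, 3030 and 4185, and 1862 and 2105. The members split 2 and 1, 4 and 1, 7 and 1, and 6 and 1 with each. The median difference of the 10 probe sets at these 4 steps was 0.28, 0.50, 0.40 and 0.24, and that of all probe sets was -0.01, -0.04, -0.08 and -0.03. Without the yolk-poor controls the same numbers of the 10 passed, 3, 5, 8 and 6, against 17.5%, 5.57%, 51.2% and 27.5% of all probe sets. At the first control step these were not the same 3 probe sets, as given for gpx4a and park7. The members were chosen with earlier results of these data known, so their counts beside the shares of all probe sets are a description.

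**Figure D1:**
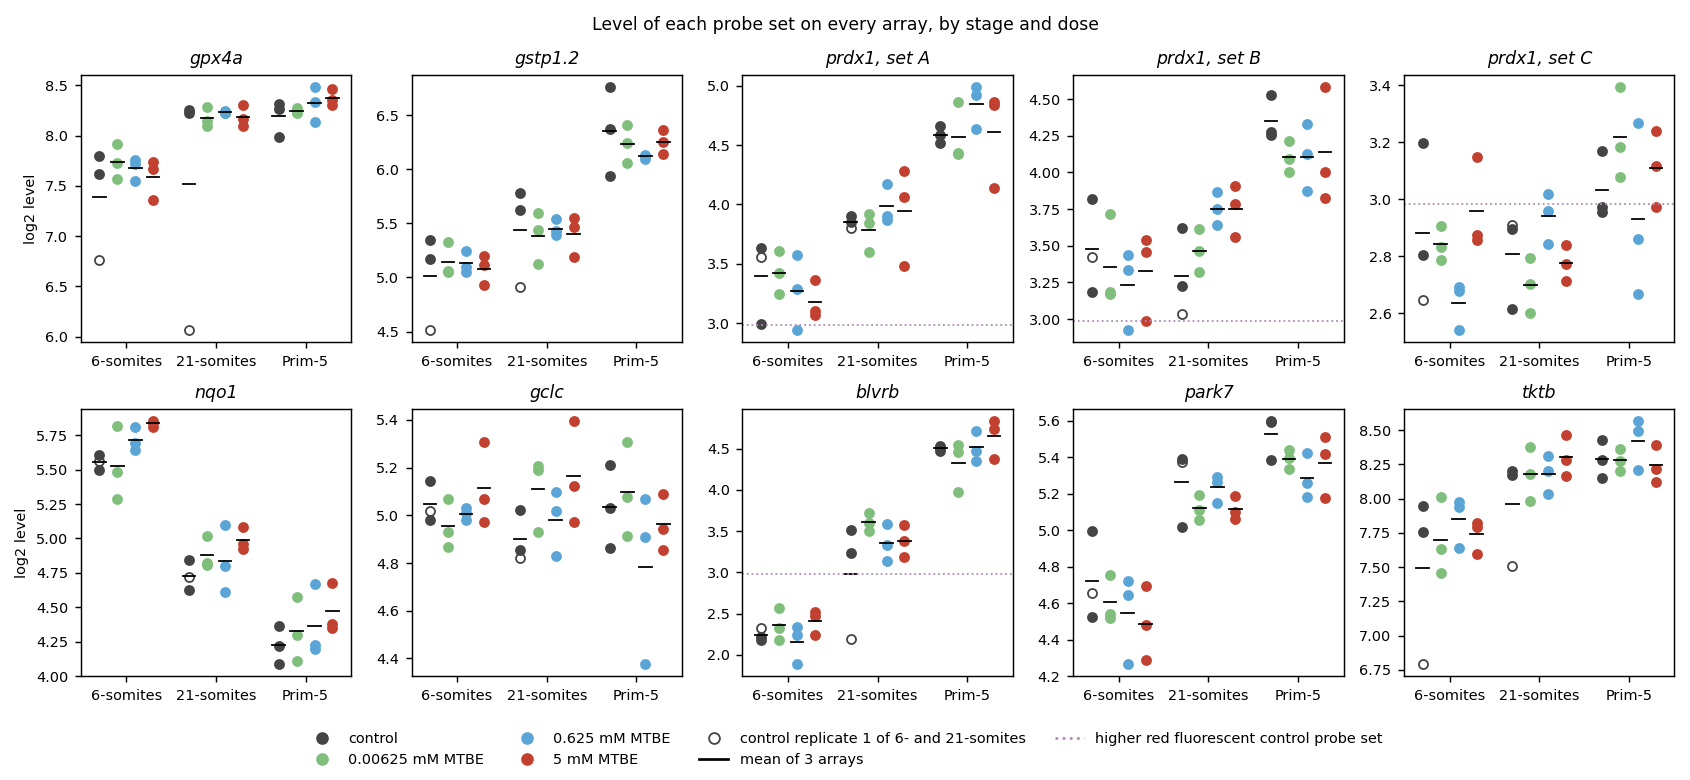
Log2 level of each of the 10 probe sets on all 36 arrays, by stage and dose; points are arrays, lines are means of 3 arrays, and the dotted line is the higher red fluorescent control probe set (2.98), drawn where it falls in range. Open points are the yolk-poor controls, which lie lowest for gpx4a, gstp1.2 and tktb at both stages and for blvrb at 21-somites; the fall of nqo1 and the rise of blvrb run through all doses.

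Of the genes that remove peroxides, gpx4a encodes a selenium-containing glutathione peroxidase that reduces lipid peroxides in membranes. Its control arrays read 6.77, 7.79 and 7.62 at 6-somites, 6.06, 8.22 and 8.26 at 21-somites, and 7.99, 8.27 and 8.32 at Prim-5. The lowest value at 6-somites and at 21-somites was in each case the yolk-poor control, 0.94 and 2.18 under the mean of the other 2, whereas the 9 arrays with MTBE lay between 7.36 and 7.92 and between 8.09 and 8.30. With MTBE, gpx4a rose by 0.53 ± 0.17 from 6-somites to 21-somites (adjusted p = 0.00826, 1.45-fold) and differed by 0.11 ± 0.17 at the next step (adjusted p = 0.667). In controls the first difference was 0.12 ± 0.29 (adjusted p = 0.815). It became 0.54 (adjusted p = 0.00681), and passed, once the yolk-poor controls were left out. The second was 0.67 ± 0.29 (adjusted p = 0.172) with them and -0.05 (adjusted p = 0.896) without them. Leaving out the other control arrays at 21-somites in turn gave 1.03 and 1.05, which passed.

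Prdx1 encodes a cytosolic peroxiredoxin, which reduces hydrogen peroxide and is recharged by thioredoxin. In controls probe set A read 3.56, 3.63 and 2.99 at 6-somites, 3.80, 3.90 and 3.85 at 21-somites, and 4.66, 4.58 and 4.52 at Prim-5. Consecutive stages did not overlap, as was so for 31.1% and 22.8% of all probe sets at the 2 control steps. Probe set B read 3.43, 3.82 and 3.18, then 3.03, 3.22 and 3.62, then 4.53, 4.28 and 4.26, so that only Prim-5 stood apart. Both rose from 21-somites to Prim-5 in controls, A by 0.73 ± 0.19 (adjusted p = 0.0108) and B by 1.06 ± 0.19 (adjusted p = 0.000121, 2.09-fold). They differed at the first step, where A in controls was at 0.46 ± 0.19 (adjusted p = 0.0762) and B at -0.18 ± 0.19 (adjusted p = 0.534). With the yolk-poor controls left out these were 0.57 and -0.08 (adjusted p = 0.0869 and 0.861), and A passed without 6-somites control replicate 2 (0.58, adjusted p = 0.0483).

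With MTBE both prdx1 sets rose at each step, A by 0.62 ± 0.11 and 0.77 ± 0.11 and B by 0.35 ± 0.11 and 0.46 ± 0.11 (adjusted p = 1.41e-05, 6.62e-07, 0.00689 and 0.00119). Probe set C was dim, with 9 of its 12 group means under 2.98 and array values from 2.54 to 3.40. It rose only at the second step with MTBE, by 0.28 ± 0.08 (adjusted p = 0.00602), and its control difference there was 0.23 ± 0.13 (adjusted p = 0.381). Probe sets A and B therefore passed the same steps, and the dim C passed only the second step with MTBE.

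Of the genes of glutathione supply and use, the transcripts of gclc and gstp1.2 were read, and glutathione itself was not measured. Gclc, the catalytic subunit of the enzyme that limits glutathione synthesis, had group means between 4.78 and 5.16 over all 12 groups. Its stage differences were -0.15 ± 0.14 and 0.14 ± 0.14 in controls and 0.06 ± 0.08 and -0.14 ± 0.08 with MTBE, and none passed (adjusted p from 0.233 to 0.66). The 95% confidence intervals of the 2 steps with MTBE, -0.11 to 0.22 and -0.30 to 0.03, hold no change of 0.5 in either direction.

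Gstp1.2 encodes a pi-class glutathione transferase, which joins glutathione to electrophiles. Its control arrays read 4.51, 5.34 and 5.17 at 6-somites, 4.91, 5.63 and 5.78 at 21-somites, and 6.76, 6.37 and 5.94 at Prim-5. The yolk-poor control was the lowest at both earlier stages, 0.74 and 0.79 under the mean of the others, and lay under all 9 arrays with MTBE of its stage. Gstp1.2 rose from 21-somites to Prim-5 by 0.92 ± 0.19 in controls (adjusted p = 0.000959, 1.89-fold), by 0.66 without the yolk-poor controls (adjusted p = 0.00965) and by 0.79 ± 0.11 with MTBE (adjusted p = 4.38e-07). From 6-somites to 21-somites it rose by 0.30 ± 0.11 with MTBE (adjusted p = 0.023), and controls differed by 0.43 ± 0.19 (adjusted p = 0.0986), or 0.44 without the yolk-poor controls (adjusted p = 0.0811). Leaving out single arrays moved that control difference between 0.18 and 0.69, and it passed without 21-somites control replicate 1 (0.69, adjusted p = 0.00594) or 6-somites control replicate 2 (0.60, adjusted p = 0.0355). Pi-class transferases have close relatives in zebrafish, and what the probes share with them was not tested.

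Nqo1 encodes a quinone reductase that uses NADH or NADPH and is a standard Nrf2 target in mammals. Its controls read 5.56, 5.50 and 5.61 at 6-somites, 4.72, 4.63 and 4.84 at 21-somites, and 4.37, 4.22 and 4.09 at Prim-5. Consecutive stages did not overlap in controls, as for 31.1% and 22.8% of all probe sets. Over all doses nqo1 did overlap between the later stages, with a lowest value of 4.61 at 21-somites and a highest of 4.68 at Prim-5. It was the 1 gene of the 8 that fell at both steps: in controls by 0.82 ± 0.14 (adjusted p = 1.89e-05) and 0.51 ± 0.14 (adjusted p = 0.0188), and with MTBE by 0.79 ± 0.08 (adjusted p = 2.14e-10) and 0.51 ± 0.08 (adjusted p = 4.78e-06). The yolk-poor controls differed from the other controls of their stage by 0.01 and -0.01. The second control step lost its call when control replicate 3 of 21-somites, or replicate 2 or 3 of Prim-5, was left out (adjusted p = 0.0795, 0.0544 and 0.108).

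Blvrb encodes a biliverdin reductase, which uses NADPH to reduce biliverdin and flavins and is abundant in mammalian red blood cells. Its controls read 2.32, 2.22 and 2.18 at 6-somites, under the mark of 2.98, so that no expression was shown above background at that stage. At 21-somites they read 2.199, 3.24 and 3.51, the yolk-poor control alone remaining at the 6-somites level, and at Prim-5 they read 4.47, 4.54 and 4.51. The arrays with MTBE lay between 1.89 and 2.56, then 3.14 and 3.72, then 3.98 and 4.84, and consecutive stages did not overlap, as for 14.2% and 6.75% of all probe sets.

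With MTBE blvrb rose from 21-somites to Prim-5 by 1.05 ± 0.11 (adjusted p = 3.63e-09, 2.07-fold). The fitted first-step difference was 1.14 ± 0.11 (adjusted p = 1.69e-10), and since 6-somites lay under the mark it is given as a bound, at least 1.38-fold, from the 21-somites mean of 3.45 against 2.98. In controls that bound was 1.31-fold without the yolk-poor controls, and with them the 21-somites mean lay at the mark and gave none. In controls the fitted differences were 0.74 ± 0.20 (adjusted p = 0.00523) and 1.52 ± 0.20 (adjusted p = 7.88e-07), and 1.18 and 1.13 without the yolk-poor controls (adjusted p = 7.52e-06 and 1.07e-05), which moved the first by over 1.5 times. The first control step lost its call when control replicate 3 of 21-somites was left out (0.48, adjusted p = 0.093). The mean log2 level of 9 measured red blood cell markers (of 13 listed) ran from 2.88 to 3.22 at 6-somites, 4.28 to 4.52 at 21-somites and 4.97 to 5.27 at Prim-5, and slc4a1a, cahz and gata1a among them had mean levels under 2.98. Not every marker rose: in control means klf17 fell from 6.09 to 5.64 and 4.97, and cahz read 3.46, 2.30 and 2.56. The mean of the yolk layer list rose over the same stages, though not all its genes did. In control means, which include the yolk-poor controls, mttp read 5.63, 4.79 and 4.73, and apoeb 9.205, 8.97 and 9.02. The part of either list in the rise of blvrb was not tested.

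Park7 encodes a conserved protein with an oxidation-sensitive cysteine. Its controls read 4.65, 4.52 and 4.995 at 6-somites, 5.37, 5.018 and 5.39 at 21-somites, and 5.39, 5.59 and 5.60 at Prim-5. Only the earliest stage stood apart, by the small gap from 4.995 to 5.018. At that control step 31.1% of all probe sets did not overlap. It rose from 6-somites to 21-somites by 0.54 ± 0.13 in controls (adjusted p = 0.00244) and by 0.61 ± 0.08 with MTBE (adjusted p = 2.4e-08). The control difference was 0.45 without the yolk-poor controls and missed the threshold (adjusted p = 0.0531). At the second step it differed by 0.26 ± 0.13 (adjusted p = 0.267) and 0.19 ± 0.08 (adjusted p = 0.0618).

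Tktb encodes a transketolase of the pentose phosphate pathway, the route that supplies NADPH. Its probe set carries the suffix of sets whose probes can match several transcripts, so related transketolase transcripts may contribute. Controls read 6.79, 7.95 and 7.75 at 6-somites, 7.51, 8.20 and 8.17 at 21-somites, and 8.15, 8.42 and 8.29 at Prim-5. Again the yolk-poor control was the lowest at both earlier stages, 1.06 and 0.68 under the mean of the other controls. With MTBE tktb rose by 0.46 ± 0.11 at the first step (adjusted p = 0.000903) and differed by 0.09 ± 0.11 at the second (adjusted p = 0.591). In controls the differences were 0.46 ± 0.19 (adjusted p = 0.0802) and 0.33 ± 0.19 (adjusted p = 0.375), and 0.34 and 0.10 without the yolk-poor controls (adjusted p = 0.166 and 0.813). The first ranged from 0.11 to 0.69 with single arrays left out. It passed without 21-somites control replicate 1 (0.69, adjusted p = 0.0107), 6-somites control replicate 2 (0.69, adjusted p = 0.013) or 6-somites control replicate 3 (0.59, adjusted p = 0.0459).

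**Figure D2:**
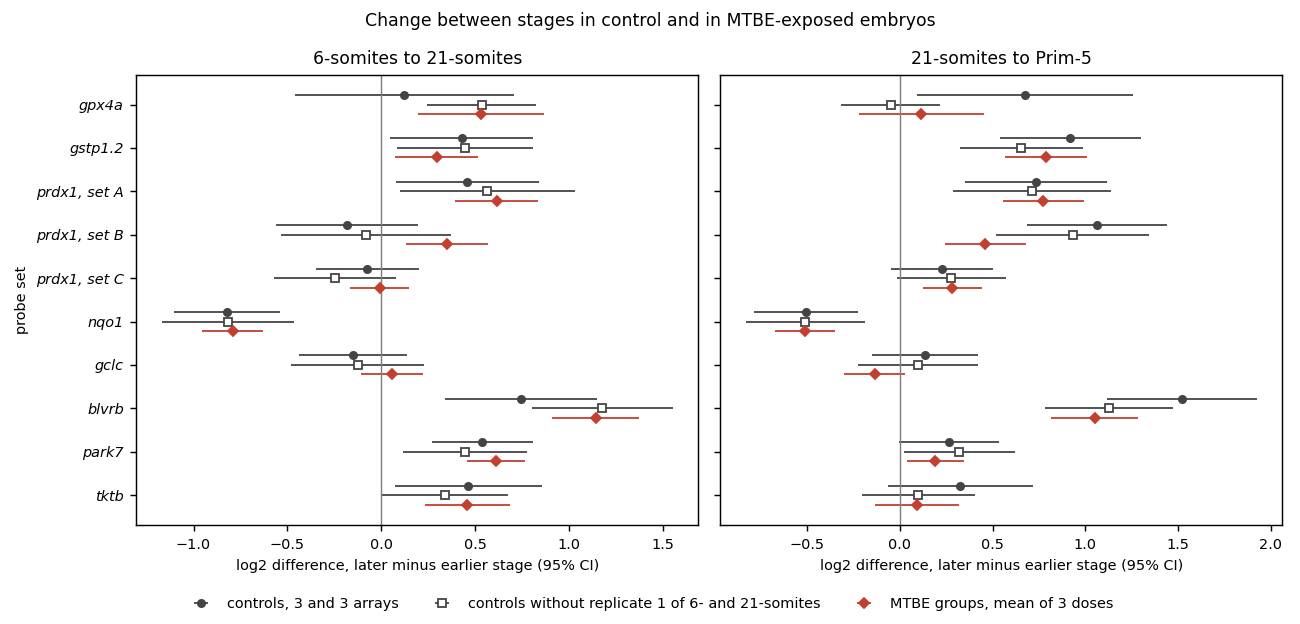
Log2 difference between consecutive stages with its 95% confidence interval for each probe set, in controls (circles), in controls without replicate 1 of 6-somites and 21-somites (open squares) and as the mean of the 3 MTBE groups (diamonds). Nqo1 lies below 0 and blvrb above 0 in every series, and gpx4a in controls moves from 0.12 to 0.54 at the first step when the yolk-poor controls are left out.

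With MTBE, none of the 10 probe sets passed limma's test against the controls of its stage at any of the 3 doses. At 6-somites the share of all probe sets that passed was 0% at 5 mM, 0.0129% at 0.625 mM and 0.29% at 0.00625 mM. It was 0% at all doses at 21-somites, and 0.00645% at 5 mM and 0% at the lower doses at Prim-5. At an unadjusted p under 0.05 the members numbered 0 at every dose at 6-somites and Prim-5, and 2 at each dose at 21-somites. Of all 15502 probe sets, 1334, 1067 and 2134 were under it at 5, 0.625 and 0.00625 mM at 6-somites. In the same order of doses, 1163, 919 and 852 were under it at 21-somites, and 578, 535 and 313 at Prim-5. The comparisons of 1 stage share its 3 control arrays. The median SE of a difference over all probe sets was 0.14, and it was 0.29 for gpx4a.

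The members at an unadjusted p under 0.05 at 21-somites were gpx4a, prdx1 probe set B and blvrb. Gpx4a differed from controls by 0.67, 0.72 and 0.66 at 5, 0.625 and 0.00625 mM (adjusted p from 0.643 to 0.867), with all 9 arrays with MTBE above the yolk-poor control and beside the other 2 controls. Without the yolk-poor controls these differences were -0.05, -0.01 and -0.06. Blvrb differed by 0.40, 0.37 and 0.63, the last with an adjusted p of 0.854, and by 0.01, -0.02 and 0.23 without the yolk-poor controls. Prdx1 probe set B differed by 0.46, 0.46 and 0.17, and by 0.33, 0.33 and 0.04 without them.

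Nqo1 lay above the controls at 5 mM at each stage. At 6-somites the arrays at 5 mM read 5.81, 5.84 and 5.85, above all 3 controls, and at 21-somites 5.08, 4.93 and 4.96, again above all 3. At Prim-5 they read 4.38, 4.68 and 4.35, of which the lowest lay under the highest control. Of all probe sets, 9.4%, 12.8% and 9.08% had no overlap between 5 mM and control at the 3 stages in order, and 12.5% lay above control at all 3 stages. The differences were 0.28, 0.26 and 0.25 (SE 0.14 each, adjusted p = 0.574, 0.681 and 1). Their mean over the stages was 0.26 ± 0.08 (adjusted p = 0.816), and also 0.26 without the yolk-poor controls (adjusted p = 0.958). The levels of nqo1 at 5 mM were 5.84, 4.99 and 4.47 at the 3 stages, in the same descending order as in controls.

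In the mean over stages at 5 mM, 0 of the 10 passed in limma and 0% of all probe sets passed. At an unadjusted p under 0.05 were 4 members and 847 of all 15502 probe sets. The 4 were nqo1, gpx4a (0.35 ± 0.17), blvrb (0.24 ± 0.11) and park7 (-0.18 ± 0.08). The difference of gpx4a became 0.01 and that of blvrb 0.12 without the yolk-poor controls, while park7 was at -0.17. With all arrays, park7 lay under the controls in all 9 comparisons of a dose with controls, by at most 0.24, and gpx4a lay above them in all 9. The share of all probe sets on 1 side in all 9 was not counted. At 5 mM alone, 10.4% lay under the controls at all 3 stages and 12.5% above them. With the yolk-poor controls left out park7 lay above the remaining controls at 0.625 mM at 21-somites, by 0.03. Its lowest difference was then -0.27, at 5 mM at 6-somites. The differences of gstp1.2, gclc, tktb and prdx1 probe sets A and C at 5 mM ran between -0.22 and 0.34 over the 3 stages, and between -0.30 and 0.23 without the yolk-poor controls. For the transcript of gclc the 95% confidence interval of the mean over stages was -0.08 to 0.25, and for gstp1.2 it was -0.24 to 0.20. Without the yolk-poor controls these were -0.11 to 0.25 and -0.38 to -0.01, and gstp1.2 was at -0.18, -0.30 and -0.11 at the 3 stages, with a mean of -0.19 that did not pass (adjusted p = 0.998).

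At 5 mM against the mean of the lower doses, which uses no control array, 0 of the 10 passed in limma at any stage, and 0 had an unadjusted p under 0.05. The differences ran from -0.17 to 0.22 at 6-somites, from -0.10 to 0.14 at 21-somites and from -0.11 to 0.23 at Prim-5. Of all probe sets, 0%, 0% and 0.00645% passed, and 1135, 427 and 744 of the 15502 had an unadjusted p under 0.05. Whether the dose response differed between stages was tested as an interaction of stage and dose. In limma 0 of the 10 passed, against 0% of all probe sets, and the smallest adjusted p of a member was 0.81. At an unadjusted p under 0.05 were 0 of the 10 and 1034 of all 15502 probe sets.

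**Figure D3:**
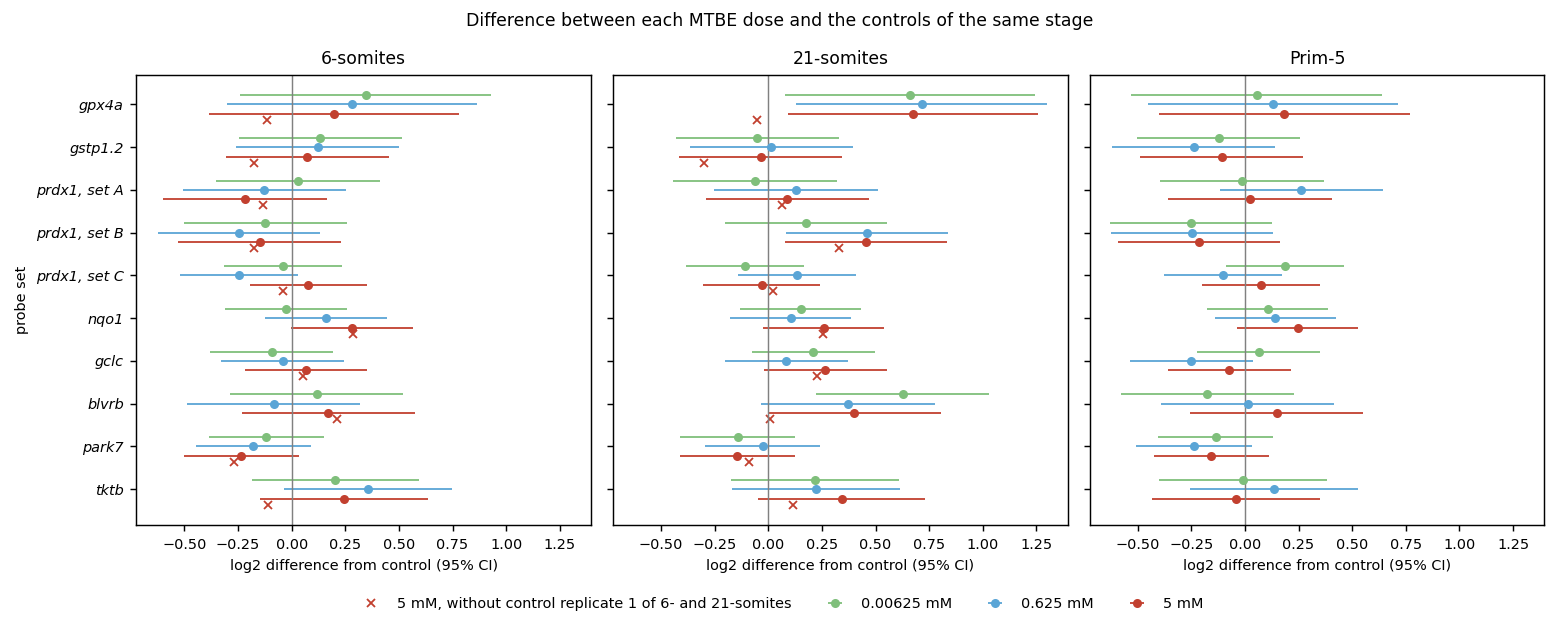
Log2 difference of each MTBE dose from the 3 controls of its stage with its 95% confidence interval, for the 10 probe sets; crosses give the 5 mM difference without the yolk-poor controls. Intervals of gpx4a at 21-somites lie above 0 at each dose with all arrays, and its cross lies at -0.05.

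Within groups, the yolk-poor controls were often the lowest arrays. All 9 arrays with MTBE lay above the yolk-poor control of the stage for gpx4a, gstp1.2 and tktb at both stages, and for blvrb, gclc and prdx1 probe set B at 21-somites. For gclc the margin was small, 4.822 against a lowest value of 4.829 with MTBE. The share of all probe sets with such a separation was not counted, so these cases are a description. For park7 at 21-somites, all 9 instead lay under control replicate 1 (5.37). At Prim-5 no control was low in yolk transcripts (8.19 to 8.30). Control replicate 1 of gpx4a was still the lowest array of that stage, at 7.99. For tktb it read 8.15, with 8 of the 9 arrays with MTBE above it, and for gstp1.2 it was the highest array, at 6.76. Nqo1 and prdx1 probe set A showed no such gap, with control replicate 1 within 0.25 of the mean of the other controls at all 3 stages. The deviations of gpx4a from its group means correlated with those of blvrb at r = 0.67 and of tktb at r = 0.64 over 36 arrays, and at 0.32 and 0.02 over the 34 arrays without the yolk-poor controls. Both genes of a pair were read on the same arrays, so these correlations are a description.

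**Figure D4:**
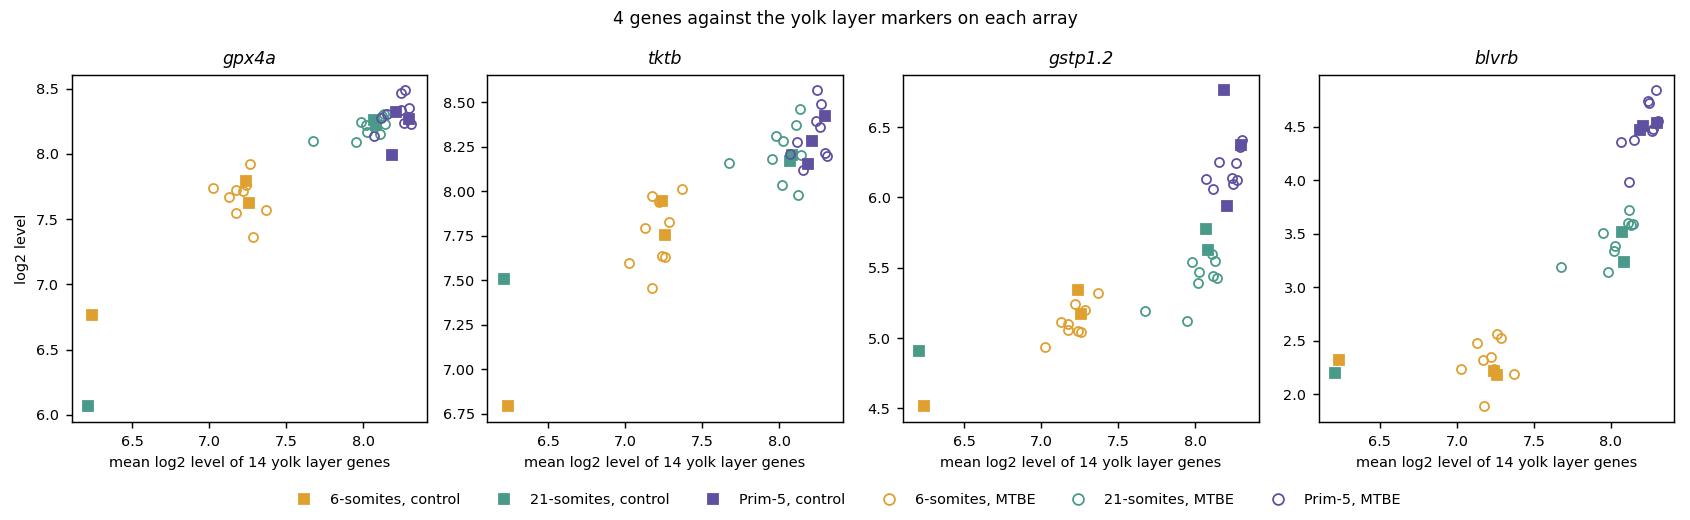
Log2 level of gpx4a, tktb, gstp1.2 and blvrb (vertical) against the mean log2 level of 14 yolk syncytial layer genes (horizontal) on each of the 36 arrays; filled squares are controls, open circles MTBE arrays, and colours give the stage. The 2 squares at 6.24 and 6.21 are the yolk-poor controls; blvrb at 6-somites is the exception, where the yolk-poor control lies at 2.32 among the other arrays.

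The genes most alike to the members in level over the 36 arrays, by Pearson correlation, followed stage. For blvrb they were pdia4, tmem14ca and selenop (r = 0.97 each). For nqo1 they were zp3a.1, nradd and vox (r = 0.95 each). For gstp1.2 they were mybpc2b, cox17 and aplp1 (0.92, 0.92 and 0.91), for park7 ttn.2, frem3 and ncam1a (0.94, 0.93 and 0.93), and for prdx1 probe set A krt1-19e, calm3a and ldb3b (0.94, 0.93 and 0.93). Probe set B of prdx1 was most like aldh6a1, calm3a and dut (0.85, 0.85 and 0.84). Gpx4a, gclc, tktb and prdx1 probe set C had group means within 1 log2 unit and were not compared this way. Among the members the pair most alike was gstp1.2 and blvrb (r = 0.90). The arrays share 3 stages, so these values include change with stage.

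The other genes of the redox network were read from 11 lists of 149 genes, of which 70 were measured. In controls 14 rose and 7 fell from 6-somites to 21-somites (30% of the 70, against 22.6% of all probe sets), and 10 rose and 0 fell from 21-somites to Prim-5 (14.3%, against 7.04%). With MTBE 30 rose and 12 fell at the first step (60%, against 49.7%), and 19 rose and 3 fell at the second (31.4%, against 25.8%). The lists below are small, and their counts are given as descriptions beside the share of all probe sets, from which nothing particular to a list is read. Their median differences at these steps were 0.10, 0.14, 0.15 and 0.08, beside medians of all probe sets of -0.01, -0.04, -0.08 and -0.03. Without the yolk-poor controls 13 of the 70 rose and 6 fell at the first control step, against 17.5% of all probe sets that passed. At the second, 4 of the 70 rose and 0 fell, against 5.57%, so the list genes then passed about as often as all probe sets. No list gene passed limma's test at any dose, at any stage.

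Of 4 measured peroxiredoxins other than prdx1, 3 rose at each step with MTBE (19.8% and 12.1% of all probe sets were higher there), among them prdx3, the mitochondrial form (0.47 ± 0.08 at the second step, adjusted p = 1.07e-05). Of 9 measured selenoproteins other than peroxidases, 5 rose at the first step with MTBE, with selenom of the endoplasmic reticulum at 1.28 ± 0.07 (adjusted p = 5.5e-18), and 0 fell, against 19.8% higher and 29.9% lower of all probe sets. Selenop, the secreted selenium carrier, rose in controls by 1.05 ± 0.19 at the second step (adjusted p = 0.000203), and by 0.69 without the yolk-poor controls (adjusted p = 0.00575). Of the 4 measured glutathione peroxidases other than gpx4a, 1 rose at the first step with MTBE and 0 at the second.

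Glutathione synthesis and recycling went both ways. At the first step with MTBE, where 19.8% of all probe sets were higher and 29.9% lower, 2 of its 7 measured genes rose and 3 fell, among them slc3a2b, a heavy chain of amino acid transporters that can carry cystine (-1.01 ± 0.09, adjusted p = 1.61e-11). At the second step chac1, which breaks glutathione down, rose by 0.64 ± 0.07 (adjusted p = 5.09e-09) and cth, which makes cysteine, fell by 0.40 ± 0.07 (adjusted p = 3.95e-05). Of 8 measured glutathione transferases, 4 rose and 0 fell at that first step, beside the same shares, with gsto2 at 1.11 ± 0.11 (adjusted p = 1.51e-10). In controls gstt1a rose by 1.02 ± 0.19 there (adjusted p = 0.00011).

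Of the 9 measured genes of NADPH supply, the list nearest to tktb, 5 rose and 1 fell at the first step with MTBE (19.8% and 29.9% of all probe sets), with nnt, the mitochondrial transhydrogenase, at 0.69 ± 0.07 (adjusted p = 2.27e-10). Of the thioredoxin and glutaredoxin system, which recharges peroxiredoxins, 5 of 11 rose and 4 fell at that step. Msrb1a, a methionine sulfoxide reductase, fell by 0.49 ± 0.08 there (adjusted p = 9.4e-06), and sesn3, a sestrin, fell by 0.44 ± 0.10 at the second step (adjusted p = 0.00108). In controls sesn3 differed at the second step by -0.05 ± 0.18 (adjusted p = 0.91), or -0.32 without the yolk-poor controls (adjusted p = 0.302). At the first step sesn3 fell in controls by 0.79 ± 0.18 (adjusted p = 0.000783). That difference ranged from -1.03 to -0.53 with single arrays left out and was -0.53 without 21-somites control replicate 1 (adjusted p = 0.0238). It missed the threshold when only the arrays compared were fitted (adjusted p = 0.0569).

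Heme breakdown and iron storage, the list nearest to blvrb, had 4 measured genes, all of iron storage or export, so heme breakdown was not read. Slc40a1, the iron exporter ferroportin, rose at the first step by 2.096 ± 0.19 in controls (adjusted p = 4.26e-11) and 1.92 ± 0.11 with MTBE (adjusted p = 3.59e-17), and by 0.79 ± 0.19 at the second control step (adjusted p = 0.00701). Fthl27, a ferritin heavy chain-like gene, fell at the first step by 0.61 ± 0.12 in controls (adjusted p = 0.000171) and by 0.39 ± 0.07 with MTBE (adjusted p = 1.1e-05). Fthl28, dim at a mean level of 1.32, fell there by 0.39 ± 0.13 and 0.29 ± 0.07 (adjusted p = 0.0226 and 0.00149). Fth1a fell there by 0.33 ± 0.10 in controls (adjusted p = 0.0145) and did not pass with MTBE (-0.08 ± 0.06, adjusted p = 0.235). Of 7 measured genes of quinone and aldehyde reduction, the list nearest to nqo1, 3 rose and 1 fell at the first step with MTBE (19.8% and 29.9% of all probe sets), and 2 rose at the second (12.1%). Among them was aldh2.2, a mitochondrial aldehyde dehydrogenase, which rose by 0.66 ± 0.08 (adjusted p = 9.38e-08) and by 0.66 ± 0.15 in controls (adjusted p = 0.00238).

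Sod2, the mitochondrial superoxide dismutase, fell at the first step by 1.07 ± 0.18 in controls (adjusted p = 1.18e-05) and by 0.96 ± 0.10 with MTBE (adjusted p = 5e-10), and no other gene of the 3 measured in its list passed there. At the second step with MTBE sod2 rose by 0.35 ± 0.10 and sod1 by 0.35 ± 0.09 (adjusted p = 0.00959 and 0.00164). Of all probe sets, 12.1% were higher at that step. In controls neither passed there (0.23 ± 0.18 and 0.36 ± 0.15, adjusted p = 0.509 and 0.158). Cat, which encodes catalase, had a mean level of 1.30 and passed at no step. Me3, a mitochondrial malic enzyme, rose by 0.99 ± 0.17 at the first control step (adjusted p = 2.14e-05) and by 0.62 ± 0.10 at the second step with MTBE (adjusted p = 5.68e-06). Of the Nrf2 sensors and partners, 4 of 15 listed genes were measured. Keap1a rose by 0.62 ± 0.14 at the first step with MTBE (adjusted p = 0.000282), where 19.8% of all probe sets were higher. Its control difference there was 0.50 ± 0.24 (adjusted p = 0.129). Sqstm1, an autophagy receptor that binds Keap1, fell by 0.29 ± 0.08 at the second step with MTBE (adjusted p = 0.00811). In controls sqstm1 differed there by 0.01 ± 0.15 (adjusted p = 0.985). Nfe2l2a and maff passed at no step, and their mean levels of 2.74 and 2.915 lay under the mark of 2.98. Neither was shown above background. Of the measured Nrf2 list only keap1a, at 3.38, had a mean level above that mark. Sod2, me3 and sqstm1, at 2.74, 2.74 and 2.92, also lay under it.

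**Figure D5:**
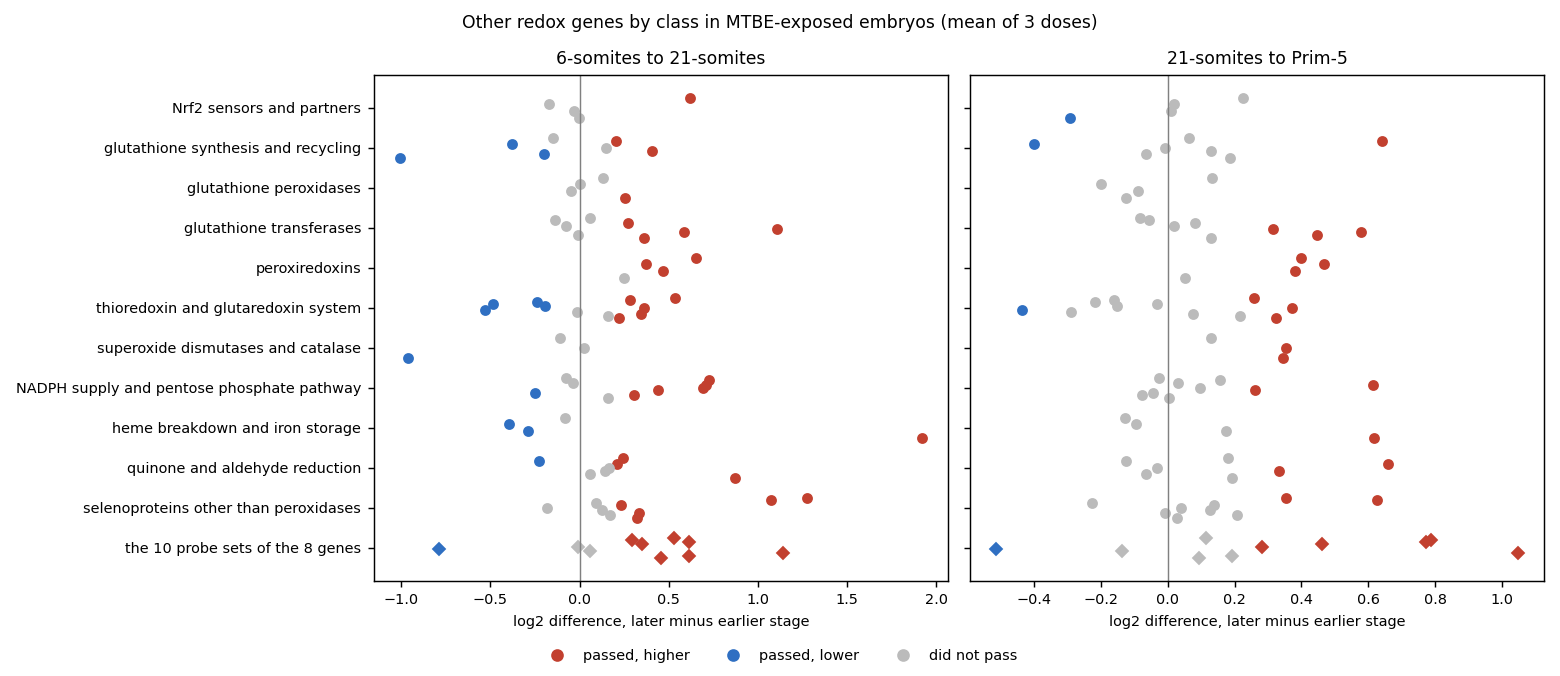
Log2 difference between consecutive stages with MTBE (mean of 3 doses) for the 70 measured genes of 11 redox lists and, in the bottom row, the 10 member probe sets; red and blue points passed as higher or lower, and grey points did not pass. The iron exporter slc40a1 at 1.92 lies farthest right at the first step, and nqo1 at -0.79 and -0.51 is the one blue point of the bottom row.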

How the data were processed

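Total RNA of 36 pools was amplified and hybridised to one-colour Affymetrix arrays, per the labels' protocols. The deposited table holds log2 values made by the authors. That unit was read from the values (0.599 to 13.24), and the method of normalization is not given in the sources used here. Scanner files were not used here. Arrays have no read depth, and 3 per group limit the precision. After 115 control probe sets were left out, limma 3.58.1 in R 4.3.3 (lmFit, eBayes) fitted 12 groups to 36 arrays, with Benjamini-Hochberg adjustment over 15502 probe sets, and was tested on simulated data. Of these, 10795 had 1 symbol, 135 several and 4572 none; all 8 member symbols were current in RefSeq. Nothing states separate clutches, so p-values reflect spread between pools. The members and lists were chosen with earlier results of these data known. Named were all members and the 3 genes most alike to each member whose group means span over 1. From the pathway lists the 4 genes with the smallest p each way among those that passed at each stage step were named. Other measured genes of the Nrf2 and iron lists, and of the list of superoxide dismutases and catalase, were added to complete those lists. Alternatives were 2 normalizations, 50 added before log2, a filter at the median level, trended robust moderation, array weights, only the arrays compared, a replicate block, and arrays left out. A gene with several probe sets in a list was read from the one with the highest mean. Replicate numbers did not meet the rule for pairing, so no block was in the model.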

Additional observations from a re-analysis of the deposited data

How the results depend on the processing

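Of the 18 counts of members that passed, 157 of 160 values under other settings kept within 1.5 times. Most of the 18 were dose results of 0 that stayed 0, so that share says little about the stage steps. The values that changed were all at control steps. From 6-somites to 21-somites in controls, 3 became 5 under array weights and 1 when only the arrays compared were fitted. The number of all probe sets that passed there went from 3505 to 2983 and to 1966. From 21-somites to Prim-5 in controls, 5 became 3 with only the arrays compared, and all probe sets that passed went from 1091 to 578. Leaving out single arrays gave 2 to 6 and 4 to 6 for these, 7 to 8 and 6 to 7 for the steps with MTBE, and 0 for every dose result. At the first control step 6 passed without 6-somites control replicate 2 or without 21-somites control replicate 1, where 2908 and 3086 of all probe sets passed.

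The differences that changed sign had not passed. Without the yolk-poor controls gpx4a read -0.051 in the second control step, -0.12 at 5 mM at 6-somites, and -0.052, -0.0106 and -0.0649 at 5, 0.625 and 0.00625 mM at 21-somites, and blvrb -0.0217 at 0.625 mM. Prdx1 probe set C with MTBE at the first step read 0.0374 with cyclic loess and 0.0021 with array weights. With single arrays left out, gpx4a ranged from -0.25 to 0.85 and from -0.051 to 1.05 in the control steps, from -0.12 to 0.40 at 5 mM at 6-somites, and from -0.052 to 1.05, -0.0106 to 1.09 and -0.0649 to 1.03 at 21-somites. Blvrb at 0.625 mM ranged from -0.0217 to 0.64, and prdx1 probe set C from -0.19 to 0.0823 in controls and from -0.0252 to 0.0231 with MTBE at the first step.

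Calls were lost for blvrb at the first control step with 50 added (adjusted p = 0.0924) or only the arrays compared (0.111), and for nqo1 at the second with 50 added (0.0632) or only the arrays compared (0.0511). Park7 and sesn3 lost the first control step with only the arrays compared (0.0598 and 0.0569). Gstp1.2 lost its second control step with only the arrays compared (0.0732), and its first step with MTBE with 50 added (0.061) or without 21-somites 0.00625 mM replicate 3 (0.0559). Under array weights gstp1.2 and tktb passed the first control step (0.56 and 0.57, adjusted p = 0.0311 and 0.0257). Park7 passed the second step with MTBE under 6 settings (adjusted p from 0.00982 to 0.0489). The cause was not tested.

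Replicate numbers did not meet the rule for pairing, a correlation of deviations over 0.1 in every pair: 9, 15 and 19 of 66 pairs did for numbers 1, 2 and 3 (medians 0.01, 0.03 and 0.04). Of 36 arrays, 26 correlated best, on average, with arrays of their own number. That count cannot decide on pairing. Deviations from a group mean cancel within the group, and only the averages over other numbers include arrays of the same group, which lowers them. With the replicate block, 4 probe sets passed at the first control step in place of 3, prdx1 probe set A being added (adjusted p = 0.0373), and 5, 8 and 6 at the other steps and 0 in each dose result, as without it. Of all probe sets, 3549, 1126, 7743 and 4031 passed at these steps with the block, against 3505, 1091, 7708 and 3998 without it. Quantile normalization and cyclic loess moved the median of all probe sets by at most 0.07. Signal over background of single arrays was not examined.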
